A study of Mus musculus with 26 samples.

Results

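The peaks described here are the 2977 of 76806 MaTAR25 ChIRP-seq peaks of the 4T1 total-pool list that were annotated as transcript ends (TTS), which is 3.88% of the list (95% Wilson interval, 3.74 to 4.01%). A peak has this annotation when its centre lies from 100 bases before to 1000 bases after the annotated 3′ end of a transcript. MaTAR25 is a nuclear long noncoding RNA (lncRNA) of mouse mammary tumor cells, and the gene is listed as 1200007C13Rik. ChIRP-seq uses biotinylated antisense DNA oligos to pull an RNA out of fixed chromatin and sequences the DNA that comes with it. The total pool held 14 oligos of 20 bases against MaTAR25, the odd pool the 7 with odd numbers and the even pool the 7 with even numbers.

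Pulldowns were made from wild type 4T1 cells, a BALB/c mammary tumor line, with 2 libraries for the total pool, 2 for the odd pool, 3 for the even pool and 1 for Ppib (Cyclophilin B), the negative control RNA. A further list came from primary NDL cells of strain FVB, with 2 total-pool libraries and 1 Ppib library. Their label gives the genotype as MMTV-PyMT, while the study's text calls them MMTV-Neu-NDL, and both names are given here because the files do not decide between them. Each list is 1 set of peaks called on pooled replicates, so no peak has a replicate error. Polyadenylated RNA of 4T1 cells was sequenced in 2 control libraries labelled wild type, in 3 libraries of KO1 and in 4 libraries of KO2, both labelled MaTAR25-/-. By the study's methods KO1 and KO2 are single-cell clones carrying a CRISPR/Cas9 deletion that includes the MaTAR25 start site, and control cells received a guide RNA against Renilla luciferase. The labels do not say whether libraries of a clone came from separate cultures, so p-values measure the spread between these libraries, which may be technical. Pooled KO values and tests treat the libraries of both clones as replicates, though the knockout is represented by only 2 clones. Effects of the deletion cannot be told apart from other differences between these clones and control cells.

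Between 25367211 and 61110585 reads per RNA-seq library were counted on genes. Of the epithelial markers, 7 of 8 exceeded 1 CPM (counts scaled to the library's total) in control cells, where their sum was 3725 to 3911 CPM, and Krt5 was at 0 in every library. The sum was 2197 to 7337 CPM in KO libraries. The immune markers summed to 5.0 to 5.53 CPM in control cells and 1.09 to 9.72 CPM in KO cells, with Cd3e, Adgre1 and Itgam at 0 in both control libraries. The endothelial markers summed to 0.241 to 0.275 CPM and 0.0995 to 1.68 CPM, with Kdr at 0 in both control libraries. The fibroblast markers summed to 20.3 to 25.9 CPM and 11.8 to 47.6 CPM, with Dcn and Lum at 0 in every library. Their part in the expression results was not tested. In such bulk samples, fewer cells of a type and less RNA per cell cannot be told apart.

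At the end of a protein-coding gene, the nascent RNA is cut downstream of a polyadenylation signal, usually AAUAAA, and receives its poly(A) tail. Many genes have several annotated ends, among them short internal transcripts and transcripts that retain an intron. Nuclear lncRNAs can stay on chromatin and contact loci far from their own gene, and the use of independent odd and even oligo pools is meant to separate such contacts from signal tied to particular oligos.

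The oligos and the matching peak sequences are shown first, because whether a transcript-end peak held an oligo match went with the lists it was shared with. The oligos below matched the most transcript-end peaks, and 2 further even oligos stand beside them for comparison. They are antisense to MaTAR25, whose gene lies on the minus strand of chromosome 2, and are printed 5′ to 3′ on the plus strand of GRCm38.
Oligo 12 (even), chr2:167828288-167828307: aatagggagaagggaggctc
Oligo 4 (even), chr2:167829283-167829302: caggtggtggagatggaatg
Oligo 6 (even), chr2:167828998-167829017: agtcacagagaaggacggcg
Oligo 5 (odd), chr2:167829169-167829188: gaaaggaaacacccaggtca
Oligo 3 (odd), chr2:167829388-167829407: tcctggagatgcattttttc
Oligo 8 (even), chr2:167828837-167828856: cttgctccagaacgacagcg
Oligo 2 (even), chr2:167833464-167833483: aagagtctgacttcttggca

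Below are 5 of the 6 highest-scoring transcript-end peaks that overlapped a peak of the even, the odd and the NDL list and shared 14 or more consecutive bases with an oligo, each shown by 30 bases around the match. The strand is the one that carries the oligo sequence, and capitals mark the matched bases. In 3 of these sites the match was to oligo 4.
Zfp384, oligo 12, chr6:125032400-125032429, plus strand: ggagttacTAGGGAGAAGGGAGtctgacaa
Muc2, oligo 4, chr7:141702719-141702748, minus strand: gagatgggGGTGGTGGAGATGGgagtagag
Sh3bp2, oligo 6, chr5:34553377-34553406, plus strand: gtggtagAGTCACAGAGAAGGACtctggtg
Ccdc187, oligo 4, chr2:26242672-26242701, plus strand: ggtgtgtGTGGTGGAGATGGAAgagaagtg
Mknk1, oligo 4, chr4:115865311-115865340, plus strand: gggctgcaGTGGAGATGGAATGagaaagca

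For comparison, 4 further peaks of high score carried shorter matches. The first 2 below overlapped no peak of the odd list.
Gm23215, oligo 12, chr16:3249607-3249636, plus strand: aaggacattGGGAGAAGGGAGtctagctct
Gm27409, oligo 8, chr8:47592062-47592091, plus strand: ttttccccCTTGCTCCAGAACtctgaaaat
Cx3cl1, oligo 4, chr8:94779932-94779961, minus strand: ggccaaacGGTGGTGGAGATGtcagccgcc
Tomm40l, oligo 3, chr1:171217365-171217394, minus strand: actcaggcTCCTGGAGATGCAgtcctttca

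The first question was whether MaTAR25 pulldown DNA gathers at transcript ends. The transcript-end peaks made up 3.86% of the even list (2493 of 64607), 3.79% of the odd list (2321 of 61311) and 4.10% of the NDL list (2887 of 70329). The window around transcript ends covers 3.78% of the sequenced bases of chromosomes 1 to 19 and X. With gene positions of GENCODE vM21, 4.09% of all total-pool peak centres fell in this window, and after each peak was moved by 10 kb 4.15% did. Around the ends of 22028 protein-coding genes there were 765 peak centres in the kilobase after the end and 735 in the kilobase before it. The moved peaks gave 730 and 764. From 1 to 5 kb after the end there were 755.75 centres per kb, and from 5 to 1 kb before it 737.5. The annotation class was thus about as common as the space it covers, and no rise at gene ends was seen in these counts.

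**Figure D1:**
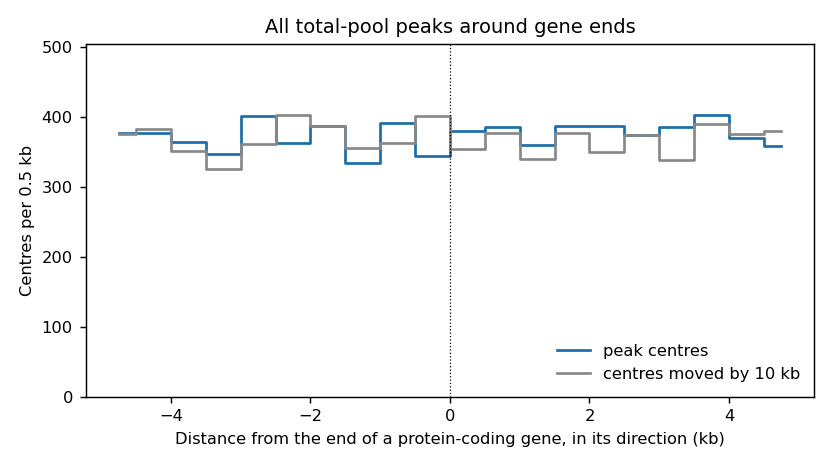
All total-pool peak centres around the ends of 22028 protein-coding genes. The x axis is the distance from the gene end in the direction of transcription in kb, the y axis the number of centres per 0.5 kb, the blue line the peaks and the grey line the same peaks moved by 10 kb. The blue and grey lines run at like heights on both sides of the end, with 765 and 730 centres in the first kilobase after it.

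Of the 2977 peaks, 2968 named a transcript that is in GENCODE vM21. Their centres lay a median of 467 bases past the end (quartiles 174 and 734), and 252 of them (8.49%) lay at or before it. Only 1539 (51.9%) were at the outermost end of their gene, whereas 1429 (48.1%) lay inside the gene at an internal transcript end. Protein-coding genes held 2053 of the peaks (69.2%), processed pseudogenes 238 (8.02%), lincRNAs 196 (6.60%) and antisense genes 3.47%. Small RNA genes followed, with 44 peaks at snRNA, 41 at miRNA and 35 at snoRNA genes, whose ends lie close to their starts. In protein-coding genes the named transcript was itself coding for 1123 peaks (54.7%), a retained-intron transcript for 478 (23.3%), a processed transcript for 326 (15.9%) and a target of nonsense-mediated decay for 122 (5.94%). A transcript start lay within 1000 bases of 509 centres (17.1%).

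The polyadenylation hexamer AATAAA was found on either strand in 52.6% of the transcript-end peaks and in 51.4% of the regions of the same length 10 kb away. All total-pool peaks had 53.2% against 56.6%. GGTGG, which the study names as a binding motif of the purine-rich element-binding protein PURB, was found on either strand in 81.0% of the transcript-end peaks and 71.2% of the moved regions, against 77.5% and 67.4% for all peaks. The median GC content was 45.8% in the transcript-end peaks and 44.8% in the moved regions. Runs of at least 4 TGG or CCA units, which overlap the GGTGG motif, were in 3.39% of transcript-end peaks (2.80 to 4.11%) and in 0.571% of the moved regions.

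HOMER, the peak caller, gives each peak a score. No source used here gives its scaling, so score levels were compared only inside a list, and between lists only their ranks. The median score of transcript-end peaks was 46.3 (quartiles 27.5 and 94.6, range 14.9 to 904.2). Exonic peaks had a median of 49.8 and promoter peaks of 49.4, while intronic peaks had 42.0 and intergenic peaks 40.8. The median length was 500 bases in all these classes.

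The 10 highest-scoring transcript-end peaks scored 707.6 to 904.2 and stood between ranks 73 and 258 of the whole list. The highest lay over Gm23215, a predicted miRNA gene on chromosome 16 (chr16:3249316-3250068), with its centre 12 bases before the end. The next lay 340 bases past the end of Gm27409, another predicted miRNA gene (chr8:47591775-47592399, score 901.1). Neither gene had a count in any of the 9 RNA-seq libraries. Both peaks overlapped even-list and NDL peaks but no odd-list peak, and each held a match to an even oligo, number 12 and number 8.

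The peak at Map1s, which encodes a microtubule-associated protein, scored 851.6 (chr8:70917130-70917754) and lay at the end of a retained-intron transcript. It was shared with all 3 lists and held no oligo match of 12 bases. Cx3cl1, the chemokine fractalkine, had a peak of 753.5 (chr8:94779727-94780351) and Muc2, a secreted mucin, one of 733.1 (chr7:141702524-141703148), both shared with all 3 lists and both matching oligo 4. Zfp384, a zinc finger transcription factor, had a peak of 758.6 (chr6:125031738-125032875). The peaks at the pseudogenes Pisd-ps2 (score 740.6, chr17:3076695-3077586) and Pisd-ps1 (score 707.6, chr11:3129980-3130861) overlapped even-list and NDL peaks only. These are near-identical copies of Pisd, so reads could be split between them and their position is uncertain. The peak at Tomm40l (score 712.7, chr1:171217325-171218563), an outer mitochondrial membrane protein gene, was shared with all 3 lists and matched odd oligos 3 and 11. The peak it overlapped ranked 62 in the odd list but only 39290 in the even list.

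The next question was how many of these peaks came back with other oligos and in other cells. Of the 2977 peaks, 1823 (61.2%; 59.5 to 63.0%) overlapped an even-list peak by at least 1 bp, 1107 (37.2%; 35.5 to 38.9%) an odd-list peak and 2001 (67.2%; 65.5 to 68.9%) an NDL peak. For all total-pool peaks the shares were 61.1%, 37.7% and 66.4%, each inside these intervals. All 3 lists were shared by 419 peaks (14.1%), against 13.4% of all peaks. The even and NDL lists without the odd list were shared by 924 (31.0%), and the odd and NDL lists without the even list by 371 (12.5%). No other list was shared by 275 (9.24%), against 9.47% of all peaks. The overlapped peak was itself annotated as a transcript end in 94.5% of the even, 92.5% of the odd and 95.4% of the NDL overlaps.

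The even list stood apart on 2 chromosomes, which touches these shares. It holds 0 rows on chromosome 3 and 8877 on chromosome 2, where the odd list has 3835 and 4454. As written, 0 of the 149 transcript-end peaks on chromosome 3 overlapped an even-list peak, yet 83 of them (55.7%) lay at the positions of even-list rows written as chromosome 2. For the odd list that count was 3 and for the NDL list 5. Without chromosomes 2 and 3 the even share was 64.9% (1685 of 2598), the odd share 36.9% and the NDL share 67.7%.

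Peaks with higher scores were shared more often, as the plot by score shows. From the lowest to the highest of 4 groups of equal size by score, sharing with the even list went from 41.6 to 80.9%, with the odd list from 25.4 to 53.9% and with the NDL list from 44.7 to 80.5%. The median score was 121.7 for the peaks shared with all 3 lists and 23.9 for those shared with none. Over shared peaks, total-pool scores ranked most like those of the NDL list (Spearman correlation 0.87, n = 2001) and the even list (0.83, n = 1823), and less like those of the odd list (0.45, n = 1107). The peaks of 1 list come from the same libraries and are not independent of each other.

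**Figure D2:**
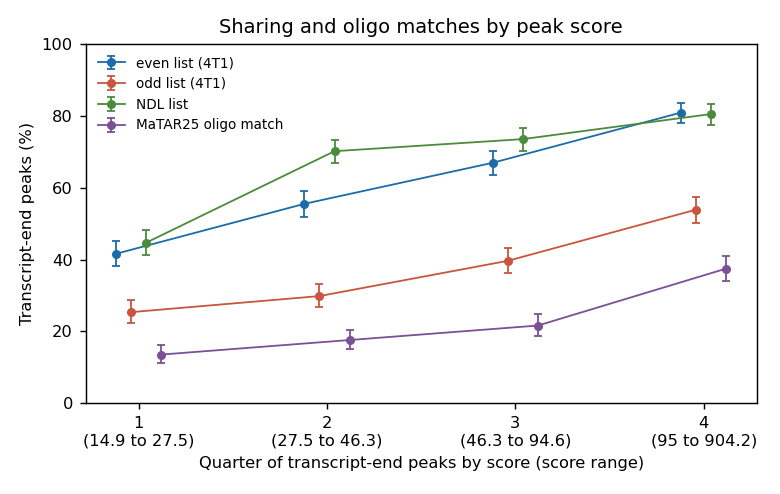
Transcript-end peaks in 4 groups of equal size by their score in the 4T1 total-pool list. The y axis is the percentage of peaks that overlapped an even-list, odd-list or NDL-list peak by at least 1 bp or held a MaTAR25 oligo match of at least 12 bases, with 95% Wilson intervals as bars. All 4 percentages were higher in the top group than in the bottom group, and oligo matches went from 13.6 to 37.5%.

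Of the transcript-end peaks, 672 (22.6%; 21.1 to 24.1%) shared at least 12 consecutive bases with a MaTAR25 oligo on either strand, whereas 40 of the regions 10 kb away (1.34%) did. The share was 24.2% over all total-pool peaks and 26.0% over promoter peaks, against 1.46% and 1.33% of moved regions. Matches of at least 14 bases were in 108 transcript-end peaks (3.63%) and in 2 moved regions (0.0672%). The 8 Ppib oligos matched 11 peaks (0.369%) and 0.873% of the moved regions. The centre of the longest match lay a median of 70.5 bases from the peak centre (quartiles 37.5 and 105). In 491 of the 672 peaks (73.1%) it lay within 100 bases, whereas even placement over the peaks would put 33.5% there.

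Longer matches went with higher scores. The median score was 41.6 in the 2305 peaks without a match, 53.2 where the longest match was 12 bases (368 peaks), 88.3 at 13 bases (196 peaks), 199 at 14 bases (81 peaks) and 388 at 15 to 17 bases (27 peaks). The most frequent longest matches came from oligos 4 and 12: CAGGTGGTGGAG of oligo 4 was the longest match in 22 peaks, GGGAGAAGGGAG of oligo 12 in 21 and AGGGAGAAGGGAGG of oligo 12 in 15, with median scores of 97.3, 69.1 and 295. Oligo 12 matched 161 transcript-end peaks, oligo 4 matched 122, oligo 6 matched 62, oligo 5 matched 58 and oligo 3 matched 56. The least matched were oligo 1 with 10 peaks and oligo 13 with 11.

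Sharing followed the pool of the matching oligo. Among the 425 peaks that matched even oligos only, 80.7% overlapped the even list and 31.5% the odd list. Among the 237 that matched odd oligos only, 23.2% overlapped the even list and 93.2% the odd list. Both groups were shared with the NDL list, made with all 14 oligos, at 74.1% and 70.5%. The 2305 peaks with no match were shared at 61.5% with the even, 32.3% with the odd and 65.6% with the NDL list. The same order held without chromosomes 2 and 3, where the even-only group had 84.5% and 30.6% and the odd-only group 25% and 92.8%. What part the matches had in the pulldown was not tested.

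Oligos 4 and 6 stood apart from the other even oligos. Of the 117 peaks that matched oligo 4 and no other oligo, 76.9% overlapped the even list and 66.7% the odd list (57.7 to 74.6%). Of the 56 that matched oligo 6 alone, 89.3% and 60.7% did (47.6 to 72.4% for the odd list). The 154 peaks of oligo 12 alone overlapped the odd list in 6.49% (3.57 to 11.5%) and the 23 of oligo 8 in 0, with an interval that reached 14.3%. The 45 peaks of oligo 11 alone overlapped the even list in 6.67%, and the 54 of oligo 5 alone in 46.3%. The intervals cover counting error only.

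**Figure D3:**
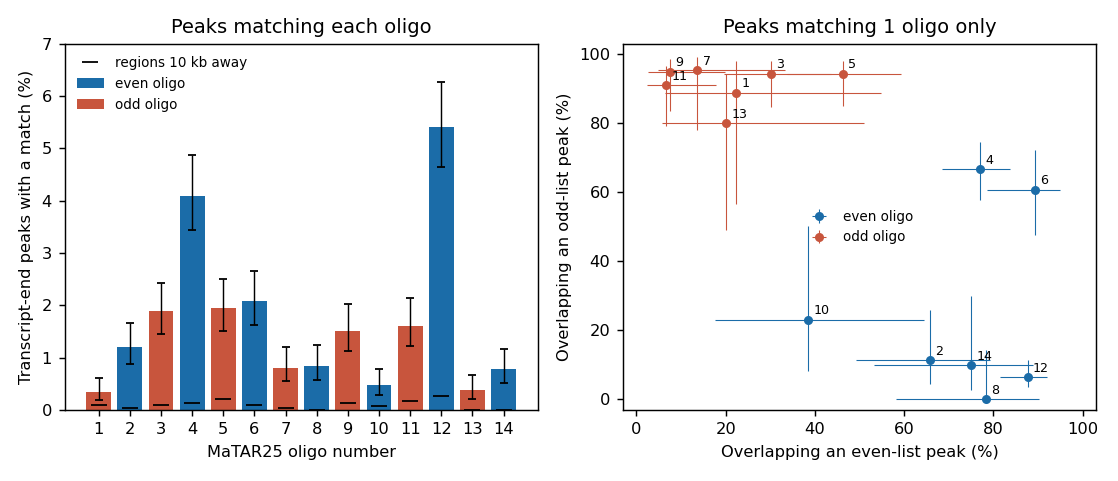
Matches of transcript-end peaks to the 14 MaTAR25 oligos, even oligos in blue and odd oligos in red. Left, the percentage of the 2977 peaks with a match of at least 12 bases to each oligo (bars, with 95% Wilson intervals) and of regions 10 kb away (black marks). Right, for peaks that matched 1 oligo only, the percentage overlapping the even list (x axis) and the odd list (y axis), with the same intervals. Odd oligos sit at the top left, and of the even oligos only 4 and 6 lie above 60% on the odd-list axis.

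The 2968 peaks belonged to 2846 genes, of which 1936 were protein-coding, 8.79% of the 22028 protein-coding genes of the annotation. There were 116 genes with 2 or more of these peaks and 5 with at least 3. Aldh7a1, an aldehyde dehydrogenase gene, had 4, with scores of 23.5 to 270.4. Lgr5, the R-spondin receptor that marks stem cells of several epithelia, had 3 (scores 25.9, 32.2 and 464.7), of which the highest was shared with all 3 lists. Ppfibp1, a liprin gene, had 3 of 21.6 to 129.5, Anapc5, a subunit of the anaphase-promoting complex, 3 of 25.9 to 76.1, and Adgrl3, an adhesion G protein-coupled receptor gene, 3 of 35.7 to 100.5. Of the peaks of Anapc5, none was shared with the odd list.

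For the expression of these genes, the targeted gene was checked first. The control libraries held 35 and 30 MaTAR25 reads. KO1 libraries held 2, 7 and 0, and KO2 libraries 11, 1, 9 and 6. All KO libraries were below both control libraries, at 0.134 ± 0.116 CPM (SD, n = 7) against 0.842 ± 0.104 (SD, n = 2), and the log2 fold change was -2.63 (SE 0.82, edgeR adjusted p = 0.0561). The call at 0.1 was lost when control replicate 1 (edgeR adjusted p = 0.260) or control replicate 2 (0.2999) was left out. The MaTAR25 gene itself held no transcript-end peak.

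Of the 2846 genes, 2560 were in the count tables, 2035 had at least 1 count and 1484 passed the filter on low counts and were tested. The tested genes included 1396 of the 1936 protein-coding genes, but only 18 of 194 lincRNA genes and 11 of 237 processed pseudogenes. In control cells the tested genes had a median level of 6.29 CPM per kb of exon (quartiles 1.59 and 16.0), against 5.29 over all tested genes (0.828 and 14.9). At an adjusted p of 0.1, edgeR called 358 of the 1484 genes (24.1%) in KO against control cells, against a background of 22.6% of all 15023 tested genes. Of these 169 rose (background 11.9%) and 189 fell (background 10.7%). The median log2 fold change was -0.001 against 0.06 over all tested genes. Far fewer of the 1484 genes, and of all tested genes, were called when control replicate 1 or control replicate 2 was left out. With 1 control library left, only the KO libraries give the spread, and the lone control is assumed to vary like them, here and for each call named below as lost without a control replicate. The share of called genes was near the background.

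In 516 of the 1484 genes (34.8%) all KO libraries lay on 1 side of both control libraries, against 34.4% of all tested genes. In the 3-group fit 504 were called in KO1 (34.0%, background 31.6%) and 514 in KO2 (34.6%, background 31.4%). These comparisons share their control libraries. Between KO1 and KO2 308 differed (20.8%, background 19.6%). In KO2 172 of them were higher (background 10.2%) and 136 lower (background 9.43%), and without KO1 replicate 2 the count of 308 was 89, without KO1 replicate 1 it was 159 and without KO1 replicate 3 it was 193. Groups of peaks were set beside the background as a description. The share called was 25.7% for genes with a peak at the outermost end and 23.5% at an internal end. It was 24.2% with an oligo match and 24.0% without. For peaks shared with all 3 lists it was 25.1%, and for those shared with none 30.8% (23.9 to 38.7%, 45 of 146 genes). Across the 1484 genes the highest score of a gene's peaks had a Spearman correlation of 0.001 with its log2 fold change.

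**Figure D4:**
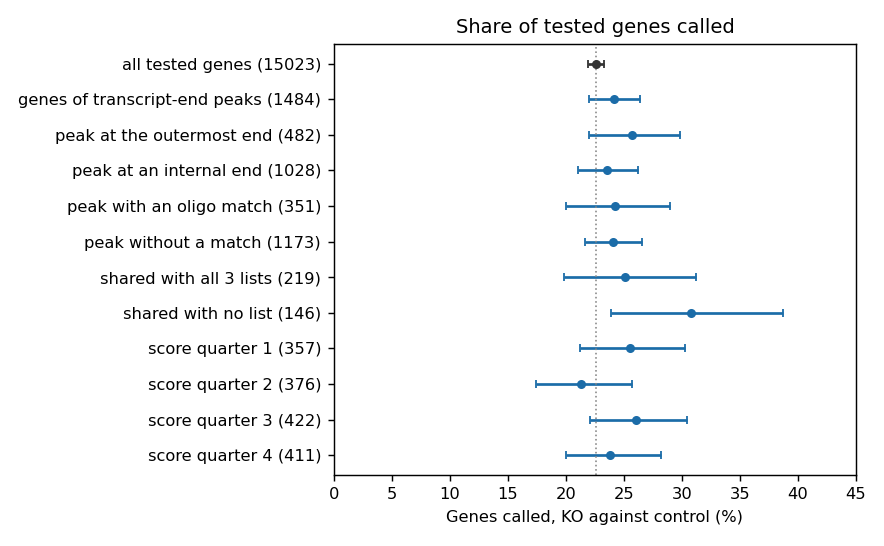
Percentage of tested genes called between KO and control libraries (edgeR adjusted p below 0.1) for all tested genes, for genes of transcript-end peaks and for groups of them, with 95% Wilson intervals and the number of tested genes in brackets. The dotted line is the 22.6% of all tested genes. The interval of every group but the genes whose peak was shared with no other list includes that value.

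Among the genes of the highest-scoring peaks, Mknk1 and Tomm40l were called. Mknk1, a kinase that phosphorylates the translation factor eIF4E, had 92.3 and 99.8 CPM in control cells, 23.2, 23.6 and 21.0 in KO1 and 27.8, 31.3, 22.3 and 25.3 in KO2. The KO libraries lay far below both controls, with a log2 fold change of -1.95 (SE 0.16, edgeR adjusted p = 0.00046). Its peak (chr4:115864464-115865651, score 636.6) lay 492 bases past the end of a coding transcript and overlapped all 3 other lists. Beside even oligo 4, this peak matched odd oligo 11 and even oligo 12. Tomm40l had 5.95 and 7.41 CPM in control cells, 15.9, 14.7 and 18.2 in KO1 and 13.4, 11.5, 15.8 and 12.3 in KO2. It rose by 1.12 on the log2 scale (SE 0.25, edgeR adjusted p = 0.0168), and every KO library was above both controls, but without control replicate 1 or without control replicate 2 it was not called.

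The other genes of these peaks did not pass the test. Zfp384 had 69.2 and 68.9 CPM in control cells and 46.0 to 66.9 (median 52.7) in KO cells, with no overlap and an adjusted p of 0.156 (edgeR). Sh3bp2, an adaptor protein gene, had 16.3 and 16.1 CPM against 11.1 to 41.6 (median 30.9). Map1s had 95.8 and 97.1 CPM and 80.5 to 125 in KO cells, with a log2 fold change of 0.05. Cx3cl1 ranged from 8.17 to 59.3 CPM in KO cells around the 19.5 and 20.9 of control cells. Muc2 stayed below 0.37 CPM in every library, and Ccdc187 had no count in any. The pseudogenes Pisd-ps1 (2.88 and 3.6 CPM in control cells, 1.64 to 6.72 in KO cells) and Pisd-ps2 (0.944 and 0.610, then 0.505 to 1.42) overlapped between groups.

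The genes that fell most served several functions. Baiap2l1, which binds actin and shapes membranes, had 190 and 201 CPM in control cells, 26.2, 23.2 and 17.7 in KO1 and 32.5, 33.5, 29.3 and 21.5 in KO2, a log2 fold change of -2.89 (SE 0.21, edgeR adjusted p = 0.000442). Stbd1, a glycogen-binding protein gene, had 363 and 380 CPM in control cells, 80.8, 76.0 and 46.7 in KO1 and 26.5, 37.0, 24.8 and 11.4 in KO2. All 7 KO libraries were below both controls for each gene of this group, which the rule that chose these genes required. For Stbd1 the KO2 libraries were all below the KO1 libraries. The log2 fold change of Stbd1 was -3.10 (SE 0.52, edgeR adjusted p = 0.00518).

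Masp2, a serine protease of the lectin complement pathway, fell by 2.88 on the log2 scale (edgeR adjusted p = 0.0041), from 12.8 and 6.41 CPM to 0.597 to 2.23. Its peak (chr4:148610835-148611459, score 218.2) was shared with all 3 lists and held a 13-base match to oligo 4. Bach2, a transcriptional repressor of lymphoid cells, fell from 9.97 and 6.83 CPM to 0.243 to 1.962, and Col20a1, a collagen gene, from 22.9 and 16.4 CPM to 1.46 to 4.34. Klhl33 went from 3.93 and 4.48 CPM to 0.0558 to 0.962, Galr2, a galanin receptor gene, from 5.09 and 4.73 CPM to 0.133 to 1.29, and Fam171b from 62.1 and 38.3 CPM to 2.49 to 15.3. Their log2 fold changes lay between -3.42 and -2.69, with edgeR adjusted p-values from 0.00182 to 0.016. The peaks of these 8 genes scored 17.3 to 218.2, of which only that of Masp2 exceeded 100. The calls of Masp2, Bach2, Klhl33, Galr2 and Fam171b were lost without control replicate 1, and that of Klhl33 also without control replicate 2.

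Among the genes that rose most, Steap3, a ferrireductase of the transferrin cycle, had 2.39 and 2.56 CPM in control cells, 21.3, 31.5 and 33.2 in KO1 and 15.9, 20.6, 32.8 and 20.4 in KO2. It rose by 3.34 on the log2 scale (SE 0.38, edgeR adjusted p = 0.00125). Ptpn22, a tyrosine phosphatase best known from lymphocytes, had 5.20 and 5.83 CPM in control cells, 17.8, 79.6 and 58.8 in KO1 and 66.0, 61.7, 32.8 and 22.6 in KO2. The log2 fold change of Ptpn22 was 3.13 (SE 0.63, edgeR adjusted p = 0.0111). The spread of Ptpn22 among KO libraries was wide, but the lowest of them was above both controls, as the choice of these genes required. The immune markers summed to at most 9.72 CPM in any library, and whether immune cells had a part in the Ptpn22 values was not tested.

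Pmp22, a tetraspan membrane protein gene of myelin and epithelia, had 0 counts in both control libraries and 254, 96, 324, 154, 482, 6 and 33 counts in KO1 and KO2. With 3 counts over both controls as the limit, its pooled level was at least 125-fold higher in KO cells, and the call had an edgeR adjusted p of 0.0357. Pip5k1b, a phosphatidylinositol phosphate kinase gene, had 0 and 2 counts in control cells and 4 to 711 in KO cells. The ratio of pooled levels was 320-fold with a counting interval of 88.5 to 2644 (edgeR adjusted p = 0.0219). Pmp22 and Pip5k1b passed the filter on low counts only through the KO libraries, where they are high, so their calls are no independent support. Pmp22 was far lower in KO2 replicates 3 and 4 than in the other KO libraries, and Pip5k1b in KO2 replicate 4, where it had 0.0818 CPM beside 0.061 in the higher control library. Sgk2, a serum- and glucocorticoid-regulated kinase gene, went from 0.285 and 0.244 CPM to 0.926 to 14.8, and Dab2, an endocytic adaptor gene, from 4.30 and 3.94 CPM to 7.91 to 41.8. Tnfrsf23, a decoy TRAIL receptor gene, went from 3.25 and 4.73 CPM to 16.0 to 40.7. Rasd1, a small GTPase gene, went from 0.220 and 0.275 CPM to 0.406 to 3.92 (edgeR adjusted p = 0.0934). Without KO2 replicate 1, 3 or 4 Rasd1 was not called. The calls of Pmp22, Pip5k1b, Sgk2, Ptpn22, Rasd1 and Dab2 were lost without control replicate 1 and without control replicate 2.

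**Figure D5:**
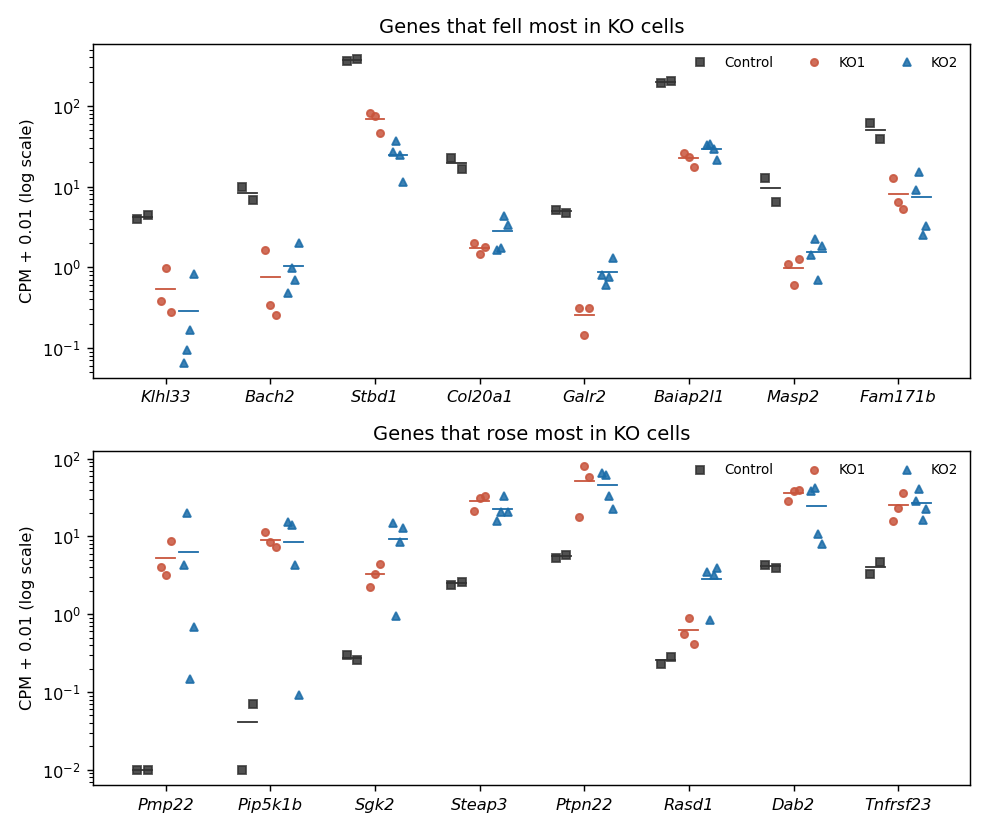
Expression of the 8 genes of transcript-end peaks that fell most and the 8 that rose most in KO cells. Each point is 1 library, horizontal lines are group means, squares are control (n = 2), circles KO1 (n = 3) and triangles KO2 (n = 4), and the y axis is CPM plus a small constant on a log scale. For every gene shown all KO libraries lie on 1 side of both control libraries, because only such genes were chosen. The spread was widest for Pmp22 and Pip5k1b.

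The genes with the highest control level per kb of exon included 2 ribosomal protein genes and a tight junction gene. Rplp0, a large-subunit ribosomal protein gene, stood at 995 CPM per kb, Cldn4, a tight junction claudin, at 777, Ywhae, a 14-3-3 protein gene, at 342, Rpl12 at 321, Arhgdia, which regulates small GTPases, at 242 and Anxa2, a membrane-binding annexin, at 238. Arhgdia rose from 550 and 543 CPM to 879 to 1140 (log2 fold change 0.89, SE 0.14, edgeR adjusted p = 0.0041). Rpl12 fell from 1115 and 1197 CPM to 646 to 981 (log2 fold change -0.60, edgeR adjusted p = 0.034), a call lost without control replicate 1 and without control replicate 2. Rplp0, Ywhae and Anxa2 had log2 fold changes of 0.25, 0.22 and 0.28 and did not pass the test. Cldn4 had 1413 and 1407 CPM in control cells, 1146, 1493 and 787 in KO1 and 230, 403, 449 and 481 in KO2. It was thus lower than control in all KO2 libraries, while the KO1 libraries lay on both sides, and the clones differed by -1.55 on the log2 scale (KO2 minus KO1, edgeR adjusted p = 0.011). The peaks at these abundant genes scored 19.2 to 198.2.

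Of the genes with at least 3 peaks, Ppfibp1 fell from 376 and 411 CPM to 179 to 258 (log2 fold change -0.88, SE 0.15, edgeR adjusted p = 0.00572), a call lost without control replicate 2. Anapc5 rose from 365 and 370 CPM to 420 to 865 (log2 fold change 0.76, edgeR adjusted p = 0.087), and that call was lost without control replicate 1, without control replicate 2, without any 1 of the 3 KO1 replicates, without KO2 replicate 2, with no filter on low counts, under the replicate block and in KO2 alone. Aldh7a1 had 15.6 and 16.0 CPM in control cells, 157, 90.8 and 84.2 in KO1 and 36.01, 32.3, 17.4 and 21.99 in KO2. All KO libraries were above both controls and the KO1 libraries above those of KO2, but the pooled test gave an edgeR adjusted p of 0.138. Adgrl3 overlapped between groups, and Lgr5 had at most 2 counts in any library.

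Tns1, a focal adhesion protein gene that the study followed as a MaTAR25 target, was looked at outside the naming rule, after its values had been seen. The study places its main target region in Tns1 at the promoter of isoform 3. It lists Tns1 among genes found by ChIRP-seq and called in its KO RNA-seq with DESeq2 at an adjusted p below 0.1. It also reports less Tns1 RNA and protein in KO cells by qRT-PCR and immunoblot. By its qRT-PCR, Tns1 levels followed MaTAR25 on antisense knockdown and rose when MaTAR25 was put back into KO cells. Its microscopy found MaTAR25 RNA overlapping Tns1 alleles in part of the cells. Where the transcript-end peak lies relative to that promoter was not looked at. Tns1 carried 1 transcript-end peak (chr1:73989158-73989783, score 63.6), 904 bases past the end of an internal processed transcript, which overlapped even-list and NDL peaks but no odd-list peak and held no oligo match. Tns1 had 6.805 and 2.17 CPM in control cells, 1.23, 0.896 and 0.135 in KO1 and 0.335, 0.379, 2.76 and 0.123 in KO2. The KO2 library at 2.76 was above the lower control library, so the groups overlapped. The log2 fold change was -2.41 (SE 0.93, edgeR adjusted p = 0.110), and by DESeq2 the adjusted p was 0.0595. Without KO2 replicate 3 the log2 fold change was -3.10 (edgeR adjusted p = 0.0311), and without control replicate 1 it was -1.35 (edgeR adjusted p = 0.640).

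Gene families were looked at by lists, and members named beyond 3 a list were chosen after their values were seen. A transcript-end peak was held by 5.12% of all annotated genes and by 8.79% of the protein-coding ones. How many annotated ends a gene has was not taken into account. Rose and fell refer to edgeR calls at an adjusted p of 0.1, for which 11.9% of all tested genes were higher and 10.7% lower in KO cells. Of the 106 adhesion and actin genes, 19 had a transcript-end peak (17.9%), of which 17 were tested, 4 rose and 0 fell. Over all 93 tested genes of that list 16 rose and 10 fell. Cfl1, the actin-severing cofilin, had 579 and 541 CPM in control cells and 994 to 2252 (median 1294) in KO cells (log2 fold change 1.32, SE 0.29, edgeR adjusted p = 0.0146). Cttn, cortactin of branched actin, rose from 271 and 249 CPM to 442 to 753 (1.14 on the log2 scale, edgeR adjusted p = 0.0123), Arpc3 of the Arp2/3 complex from 108 and 105 CPM to 188 to 268 (1.08, edgeR adjusted p = 0.00368). The fourth was Myh10, a nonmuscle myosin heavy chain gene, from 288 and 297 CPM to 341 to 616 (0.75, edgeR adjusted p = 0.0375). The median log2 fold change of the 17 was 0.25, against 0.06 over the whole list.

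Of the 21 cleavage and polyadenylation genes, 3 had a transcript-end peak and 1 of them fell. Pcf11, which couples cleavage to the release of RNA polymerase II, had 120 and 104 CPM in control cells, 46.4, 46.4 and 46.0 in KO1 and 52.0, 57.9, 55.2 and 52.4 in KO2 (log2 fold change -1.13, SE 0.14, edgeR adjusted p = 0.00173). All KO libraries were below both controls and close together. The other 2, Rbbp6 and Sympk, had log2 fold changes of -0.22 and 0.29 and did not pass the test. Over the 21 genes of the list 3 rose and 6 fell. Of the 74 cell cycle and replication genes 2 had a peak (2.70%). Ccne1, cyclin E1, rose from 4.15 and 5.22 CPM to 18.8 to 33.1 (log2 fold change 2.50, edgeR adjusted p = 0.00125), and Ndc80 of the kinetochore had a log2 fold change of 0.09. Over that whole list 48 of 74 rose and 0 fell.

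Of the respiratory chain genes, 10 of 111 had a peak, 9 were tested, 5 rose and 0 fell. Uqcrh of complex III rose from 61.2 and 56.7 CPM to 84.4 to 148 (0.92 on the log2 scale, edgeR adjusted p = 0.0258), and the ATP synthase genes Atp5g1, Atp5e, Atp5d and Atp5c1 rose by 0.75, 0.64, 0.57 and 0.42. Over the whole list 43 of 91 tested genes rose and 0 fell. Of the zinc finger genes, 44 of 496 had a peak, 38 were tested, 1 rose and 9 fell, with Zfp945 (-1.70), Zfp874a (-1.12) and Zfp280d (-1.11 on the log2 scale) the largest and Zfp668 (1.07) the one that rose. Over that list 16 of 391 tested genes rose and 63 fell. Of the solute carriers, 44 of 394 had a peak, 30 were tested, 3 rose and 5 fell. Slc25a25, a mitochondrial ATP-Mg and phosphate carrier, fell from 90.3 and 86.2 CPM to 16.1 to 37.5 (log2 fold change -1.70, edgeR adjusted p = 0.00397), and Slc39a14, a zinc and iron importer, from 227 and 234 CPM to 52.2 to 147 (-1.30, edgeR adjusted p = 0.0166). Slc26a8 fell by 1.92 on the log2 scale at a level below 0.52 CPM.

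Of the genes with ribosomal symbols, 21 of 486 had a peak, 12 were tested, 1 rose and 2 fell, and 3 of the 12 (Rps6ka5, Rps6kb2 and Rps6kc1) are kinases and not ribosomal proteins. Mrpl42 of the mitochondrial ribosome rose by 1.36 on the log2 scale (edgeR adjusted p = 0.00776), while Rps7 fell by 0.62 and Rpl12 by 0.60. Of the ubiquitin system, 17 of 228 had a peak, 14 were tested, 2 rose and 0 fell, namely Psmd7 of the proteasome (0.91) and the deubiquitinase gene Usp5 (0.63 on the log2 scale). None of the 81 histone genes had a transcript-end peak. Olfactory and vomeronasal receptor genes had 53 peaks among 1974, and none of those genes was tested. Of the 876 predicted and RIKEN genes with a peak 89 were tested, 2 rose and 7 fell. The lincRNA gene 2810429I04Rik had 60 and 52 counts in control cells, 0 in all 3 KO1 libraries and 1 count in the 4 KO2 libraries. Its pooled level was 404-fold higher in control cells with a counting interval of 71.1 to 16100 (edgeR adjusted p = 0.000473). It passed the filter on low counts only through the control libraries, where it is high, so its call is no independent support. Gm26663 (-2.29) and Gm26829 (-3.01 on the log2 scale) were the next of these predicted and RIKEN genes. Strand was not stated for the counting, so overlapping and antisense genes among them are uncertain. Of the list genes named with values, Cfl1, Cttn, Zfp945, Zfp874a, Slc26a8, Slc39a14, Mrpl42, Rps7, Rpl12, Uqcrh, Atp5g1, Atp5e, Psmd7, Usp5 and Gm26829 lost their call without control replicate 1 and without control replicate 2, and Zfp280d without control replicate 1. Gm26829 was also not called without KO1 replicate 1, KO1 replicate 3 or KO2 replicate 1, or in KO2 alone. For Myh10, Atp5d, Atp5c1 and Zfp668 the fits with a library left out were not looked at. Arpc3, Ccne1, Pcf11, Slc25a25, Gm26663 and 2810429I04Rik were called with either control library left out.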

How the data were processed

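RNA-seq reads were mapped with STAR and counted on GENCODE vM5 genes with HTSeq by the authors, and the deposited values are raw counts per gene; reads on no gene (33.9 to 37.0%) were dropped. In KO2 replicate 2 every gene stands 3 times with the same value and was read once. The ChIRP-seq peak score and annotation were deposited by the authors, who used Bowtie2 on GRCm38, then HOMER with a minimum of 50-fold over the Ppib pulldown on pooled replicates, and annotated them with GENCODE vM16. Versions of these tools are not given in the sources used here.

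Counts were fitted over all genes in R 4.3.3 with edgeR 4.0.16 (TMM, filterByExpr, quasi-likelihood test, Benjamini-Hochberg adjustment, threshold 0.1, the study's value). KO1 and KO2 formed 1 KO group, and a 3-group fit gave each clone and their difference. DESeq2 1.42.0, RLE factors, other filters, the replicate number as a block and each library left out were alternatives. The gene of a peak was that of the transcript named in its annotation, placed with GENCODE vM21. Sequences came from GRCm38, the build of the peak files. The smallest two-sided exact permutation p for 2 against 7 libraries is 0.0278. Wilson intervals are at 95% and cover counting error only. Scripts were tested on simulated data.

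Named were the 10 highest-scoring peaks, the 6 highest that were shared with 3 lists and had a match of at least 14 bases, the 8 largest rises and 8 largest falls among called genes whose groups did not overlap and whose mean reached 1 CPM, the 6 highest in control cells, genes with 3 or more peaks, and up to 3 examples a list. Of these peaks 1 is not reported here. The members and lists were chosen with earlier results of these data known.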

Additional observations from a re-analysis of the deposited data

Results flagged for a closer look

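Among the 4 KO2 libraries, 1 library stood apart from the other 3 by Dixon's test at 95% for 6 of the 59 genes looked at, and chance flags about 1 in 20 groups. Klhl33 had its highest KO2 value of 0.818 CPM in KO2 replicate 4, and so did Slc39a14 with 147 CPM. In KO2 replicate 3, Tns1 reached 2.76 CPM, Ywhae 1130 CPM, Gm26829 0.769 CPM and 2810429I04Rik 0.0226 CPM, which for the last is a single count.

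The clones differed by edgeR's test of KO2 minus KO1 in 9 named genes. Of all 15023 tested genes 19.6% differed, and the named genes are a chosen set. The difference on the log2 scale was -1.45 for Stbd1 (adjusted p = 0.0265), -1.55 for Cldn4 (0.011), -2.04 for Aldh7a1 (0.00524), -0.52 for Cttn (0.0352) and -1.23 for Zfp945 (0.0351). KO2 was higher by 1.77 for Galr2 (0.0271), 2.23 for Rasd1 (0.0308), 0.72 for Slc25a25 (0.0268) and 0.50 for Uqcrh (0.0477). The fitted change from control had the same sign in both clones in all 9 genes. All but Cldn4 and Aldh7a1 were named because the pooled KO test called them, which makes an equal sign likely by choice. Cldn4 had -0.30 in KO1 and -1.85 in KO2.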

How the results depend on the processing

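Of the genes of transcript-end peaks, 358 were called between KO and control libraries (24.1%, against 22.6% of all tested genes). The count was 440 with DESeq2 (28.7%, against 26.0%), 355 with RLE size factors (23.9%, against 22.6%) and 288 with no filter (14.2%, against 10.4%). Restricting the peaks lowered it by construction, to 90 genes for scores of at least 100 and 55 for peaks shared with all 3 lists, at 23.3% and 25.1% of genes called. Leaving out 1 library gave 54 to 407 genes, and 89 to 420 for KO1 against KO2. The named genes kept their direction in all alternatives but 6 values of genes that were not called, and the cause was not tested. These are Map1s in KO1 alone (-0.15) and without KO2 replicate 1 (-0.0113; up to 0.0961 with other libraries left out), Pisd-ps2 in KO1 alone (-0.17), under the replicate block (-0.0349) and without control replicate 2 (-0.0166; up to 0.62), and Muc2 without control replicate 2 (0.25; down to -0.78).

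Deviations of same-numbered libraries from their group means had correlations of -0.196 to 0.0558. With so few libraries a group, these cannot decide whether the numbers pair the libraries. With the replicate number as a block, 224 genes were called (15.1%, against 13.0% of all tested genes) and 197 between the clones (13.3%, against 11.6%). MaTAR25 then had a log2 fold change of -2.45 (edgeR adjusted p = 0.234). Rasd1, Rpl12, Anapc5, Zfp945, Zfp874a, Slc26a8, Uqcrh and Gm26829 were then not called, and with no filter neither were Rasd1, Anapc5 and Zfp874a. In KO1 alone Rasd1 was not called, and in KO2 alone Anapc5 and Gm26829. For MaTAR25, leaving out 1 library gave -2.97 to -2.41. With at least 10 counts in every library MaTAR25 was not tested.

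Sharing with the even list was 64.9% without chromosomes 2 and 3 and 64.0% when chromosome 3 peaks were compared with the even-list rows written as chromosome 2, which was chosen after seeing the data. At scores of at least 100, the shares were 80.9% (even), 54.9% (odd) and 80.9% (NDL), and that of oligo matches 38.7% against 1.85% in moved regions. Matches of at least 10 bases were in 63.0% of peaks against 21.8% of moved regions, and of at least 14 in 3.63% against 0.0672%. ChIRP-seq depth is unknown, which limits what the lists can miss.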
